A study of Mus musculus with 24 samples.

Results

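The Myc locus was described from every peak on mouse chromosome 15 between 100 kb before the RefSeq span of Myc and 2 Mb past its end, which is chr15:61885341-63990361 in the build mm10. Peaks were merged within each assay, which left 358 regions of 335089 in all, made up of 50 of 58677 H3K4me1 regions, 239 of 197241 PU.1 regions and 69 of 79171 ATAC regions. Distances below run from the start of the Myc span at 61985341, and a region is placed by its centre. The last H3K4me1 region, 63963401-64063799, crossed the end of the window, and the nearest one left out before Myc lay at 61859001-61862999.

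The cells were lineage-depleted bone marrow cells of C57BL/6 mice, a fraction rich in haematopoietic stem and progenitor cells. Utx, the histone demethylase encoded by Kdm6a, was absent in knockout (KO) cells and present in wild-type (WT) cells per the labels, and peak lists do not measure its expression or the editing. H3K4me1, a histone mark of enhancers, had 2 Utx KO and 2 Utx WT libraries, and PU.1, the ETS family factor encoded by Spi1, had 3 Utx KO and 3 Utx WT libraries. ATAC-seq, which maps open chromatin, was done on cells that all carried Cas9. Its first set had 8 libraries, 2 each of Utx KO with a guide RNA (gRNA) to Smarca4, Utx KO with empty vector, Utx WT with Smarca4 gRNA and Utx WT with empty vector. Smarca4 encodes the remodelling enzyme Brg1. A separate set had 2 libraries of Utx WT cells with a gRNA to Chd4, a remodelling enzyme of the NuRD complex, and 2 of Utx WT cells with empty vector. The culture text given with that set describes 7 days in semi-solid medium, 5 days in liquid culture and ATAC-seq 6 days after editing. The age and sex of the mice, the Utx and Cas9 alleles, the share of edited cells and whether replicates were separate animals are not given in the sources used here, so a p-value below measures the spread between libraries. Each edited gene had 1 guide number in the labels.

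Myc encodes a basic helix-loop-helix factor that binds DNA with its partner Max and drives growth and division. Pvt1, the long noncoding RNA gene that follows it, lies in a region with many enhancers of Myc, and a cluster of enhancers far past Pvt1 is known to keep Myc active in blood stem cells and in myeloid leukaemia. H3K4me1 is laid down at enhancers by KMT2C and KMT2D complexes, of which Utx is a subunit, and PU.1 binds many enhancers of blood cells. The 3 assays read different features of an enhancer, its histone mark, a bound factor and its open DNA.

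Of the 8 genes in the window with a sequence in the promoter table used here (RefSeq, build GRCm38.p6), Gm20740 had a peak over its promoter in every library of an assay. That table has no entry for Myc or Pvt1. The promoter of Gm20740, chr15:63479559-63479858 on the minus strand, is shown because a PU.1 island overlapped it in all 6 PU.1 libraries. No H3K4me1 island and no ATAC peak did. Motifs were searched on both strands, and capitals mark those found. For PU.1 the letters GAGGAA were searched. Other ETS factors were searched as CGGAAG. For RUNX factors, which shape blood stem cells, the letters were TGTGGT. Sites of GATA factors were searched as AGATAA. The E-box, the element that Myc and Max bind, was searched as CACGTG. The TATA box of core promoters was searched as TATAAA.
Gm20740 promoter: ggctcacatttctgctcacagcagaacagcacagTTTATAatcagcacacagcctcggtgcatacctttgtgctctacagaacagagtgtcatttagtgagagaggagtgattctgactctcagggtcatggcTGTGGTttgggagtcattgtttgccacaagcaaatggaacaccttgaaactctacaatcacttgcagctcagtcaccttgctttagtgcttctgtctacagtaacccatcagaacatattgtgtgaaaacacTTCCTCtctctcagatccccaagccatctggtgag
From left to right the capitals are the reverse strand of the TATA box letters, the RUNX letters and the reverse strand of the PU.1 letters. Over 32851 promoters of this length, 28.3% held GAGGAA, 16.8% TGTGGT and 13.6% TATAAA. A match is a description and does not show a bound site. The promoter of 4930449C09Rik, in the distal enhancer zone, held none of the 6 motifs.

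Peak lists differ in length, so a peak can be missing from a list because fewer peaks were called in it. H3K4me1 lists held 44089 and 43706 islands in Utx KO and 51394 and 54654 in Utx WT, PU.1 lists 138373 to 171535 in Utx KO and 137850 to 143628 in Utx WT, and ATAC lists 24833 to 50927 peaks. H3K4me1 islands held 7.80 and 8.63 M reads in the Utx KO libraries and 6.93 and 14.2 M reads in the Utx WT libraries, which is the part of a library that fell in islands. The ATAC lists carry no counts, so their depth is unknown. An ATAC peak at a gene end was found in all 12 libraries for Kit, Gata2, Meis1 and Myb, 4 of 8 stem and progenitor genes checked. Of the other lineage genes Gata1, Cd8a, Pax5, Col1a2 and Cdh5 had none in any ATAC library, while Cd3d, Cd79a, Klf1 and Cebpe had one in all 12.

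**Figure D1:**
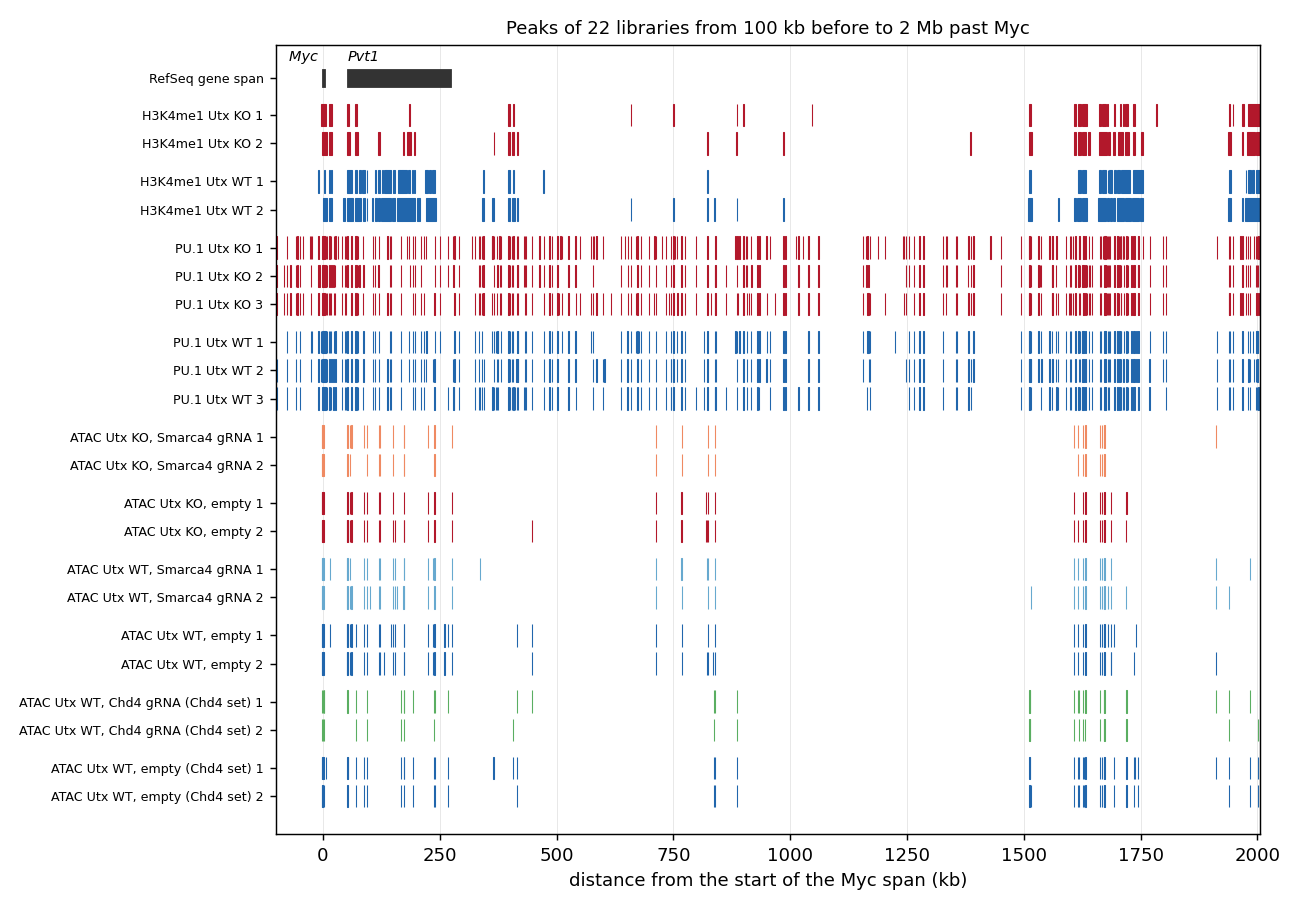
Peaks of all 22 libraries along the window, with distance from the start of Myc in kb on the horizontal axis and a row for each library, KO or edited cells above their controls. The 2 Utx WT rows of H3K4me1 are filled over Pvt1, where the 2 Utx KO rows are sparse, and all rows hold peaks near 1.6 to 1.75 Mb.

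In Utx KO cells H3K4me1 regions were lost over Pvt1, while no region at Myc or in the distal enhancer cluster was lost as a whole. Islands of the distal cluster still covered less in Utx KO, and their share of bases lost was near that of the genome. A region counts as lost when every library of the control group and no library of the other group had a peak in it, and as gained in the reverse case. In the whole window 10 of the 29 regions held by both Utx WT libraries were lost, 34.5%, against 17.1% over the genome. None of the 19 regions held by both Utx KO libraries was gained, against 3.98% over the genome. The gained count was 2 of 27 without Utx KO replicate 1, 4 of 25 without Utx KO replicate 2 and 3 of 19 without Utx WT replicate 2. Between Myc and the end of Pvt1 8 of 14 regions were lost, from the end of Pvt1 to 1.6 Mb past Myc 1 of 5, from 1.6 to 1.9 Mb 0 of 6 and from 1.9 to 2 Mb 1 of 3. The same difference between zones held base by base, without merging. Of the bases covered by both Utx WT libraries between Myc and the end of Pvt1, 68.8 of 94.6 kb were covered by neither Utx KO library, which is 72.7%, against 17.6% over the genome. In the distal zone this was 15.8 of 79.8 kb, or 19.8%. With lists of equal length made of the highest-ranked islands, the share lost over the genome was 14.2%. The lost counts were then 5 of 16 in the window and 4 of 7 between Myc and the end of Pvt1.

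H3K4me1 islands covered 16.4 and 37.0 kb between Myc and the end of Pvt1 in the Utx KO libraries, against 100 and 143 kb in the Utx WT libraries. The groups did not overlap, and the ratio of means was -2.19 on the log2 scale, against -0.26 for the covered length of the whole lists. A two-sided exact permutation test gave p = 0.33, the smallest that 2 libraries against 2 can give. In the distal zone the Utx KO libraries had 58.2 and 84.4 kb and the Utx WT libraries 85.6 and 107 kb, with a log2 ratio of -0.43. Scaled per Mb that the whole list covers, the log2 ratios were -1.97 between Myc and the end of Pvt1 and -0.20 in the distal zone. In these bulk lists a mark on fewer cells and less mark per cell cannot be told apart.

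**Figure D2:**
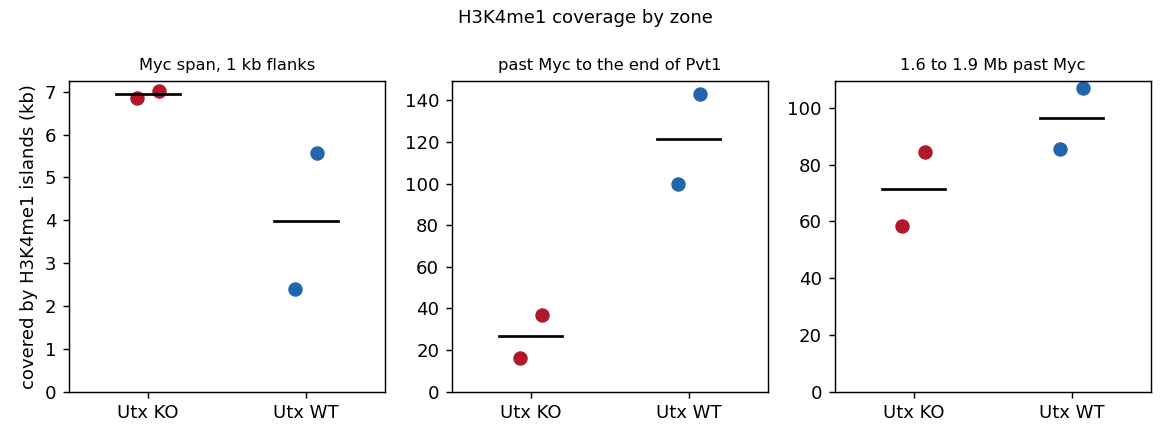
Length covered by H3K4me1 islands in kb (vertical axes, each from 0) in 3 zones, with a point for each library and a bar at the group mean, Utx KO left and Utx WT right. Between Myc and the end of Pvt1 the Utx KO libraries sit at 16.4 and 37.0 kb and the Utx WT libraries at 100 and 143 kb, while at Myc the order is the other way round.

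The widest lost H3K4me1 region, chr15:62110201-62131199 inside Pvt1 at +135.4 kb, had no island in either Utx KO library, against 426 and 751 reads in the islands of the Utx WT libraries. These islands stood in the upper 13.0% and 9.28% of their lists by reads. The next, chr15:62204201-62217799 at +225.7 kb, also had no Utx KO island and held 322 and 595 reads in the Utx WT libraries, in the upper 18.8% and 8.62%. The third, chr15:62144801-62153999 at +164.1 kb, held 160 and 366 reads in Utx WT. The other 5 lost regions of Pvt1 lay at +87.1, +94.3, +113.2, +150.9 and +237.2 kb. Outside Pvt1 the lost regions lay at +342.5 kb between genes, 3599 bp wide, and at +1974.9 kb inside Cyrib, 4399 bp wide. Cyrib encodes a regulator of the actin cytoskeleton.

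Of the 4 regions of this stretch that all 4 libraries held, 3 were shorter in both Utx KO libraries. At the start of Pvt1, chr15:62036601-62049799, islands covered 3599 and 5999 bp in Utx KO and 11799 and 13199 bp in Utx WT. At +179.6 kb they covered 3399 and 9998 bp in Utx KO and 12797 and 19799 bp in Utx WT. Between Myc and Pvt1, at +16.0 kb, they covered 5999 and 6399 bp in Utx KO and 4598 and 6199 bp in Utx WT. At that last region the groups overlapped.

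**Figure D3:**
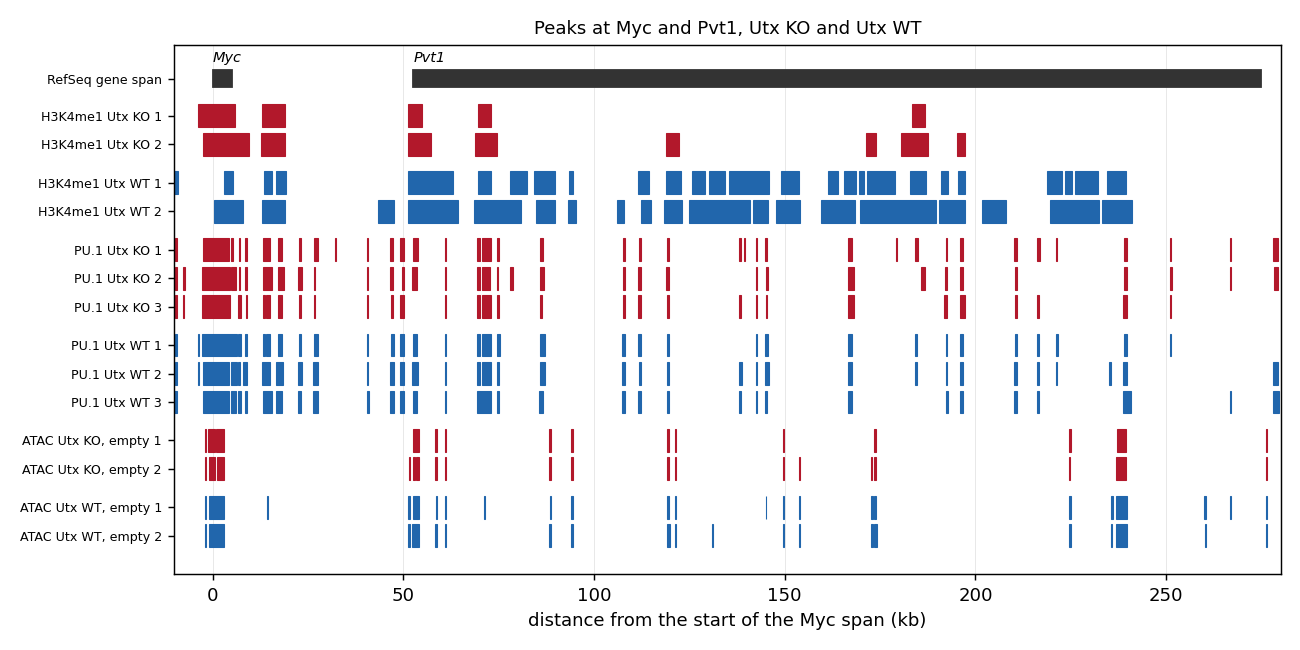
Peaks at Myc and Pvt1 in H3K4me1, PU.1 and empty-vector ATAC libraries, with distance from the start of Myc in kb on the horizontal axis and Utx KO rows above Utx WT rows. H3K4me1 islands over Pvt1 thin out in Utx KO, while most PU.1 and ATAC peaks in the same stretch appear in both genotypes.

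At the Myc gene the direction was the reverse. The H3K4me1 region chr15:61981401-61994799 was held by all 4 libraries, and its islands covered 9799 and 11999 bp in Utx KO, against 2399 and 7399 bp in Utx WT. The Utx KO islands began at -3.94 and -2.54 kb from the start of the Myc span, whereas the Utx WT islands began at +2.86 and +0.46 kb, so the Myc start was covered in both Utx KO libraries and in neither Utx WT library. Both Utx KO islands stood in the upper 11.9% of their lists by reads, against 46.2% and 25.5% for the Utx WT islands. Within the Myc span and 1 kb on either side, the covered length was 6.86 and 7.02 kb in Utx KO and 2.40 and 5.56 kb in Utx WT, a log2 ratio of 0.80 (two-sided exact permutation test, p = 0.33). Of the bases there that both Utx KO libraries covered, 21.3% were covered by neither Utx WT library, against 5.91% over the genome.

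**Figure D4:**
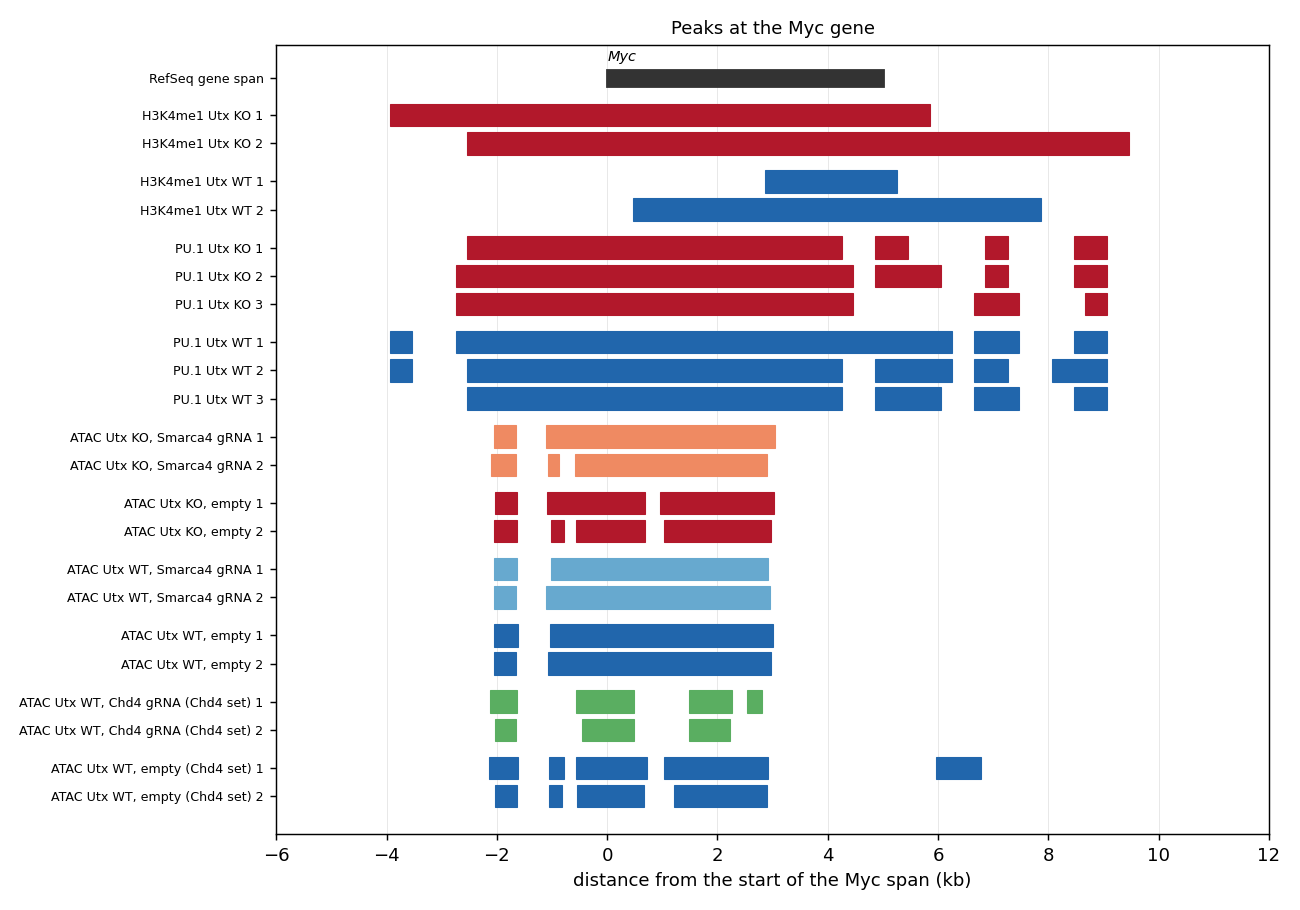
Peaks of all 22 libraries around Myc, with distance from the start of the Myc span in kb on the horizontal axis, and KO or edited rows above their controls. H3K4me1 islands reach across the start of Myc in both Utx KO rows and in neither Utx WT row, and the ATAC peak over Myc is 1 interval in both empty-vector Utx WT rows of the Smarca4 set and is split in both empty-vector Utx KO rows.

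Distal H3K4me1 was unevenly kept along the cluster. The 3 widest regions were chr15:63644401-63672999 at +1673.4 kb, chr15:63684201-63714199 at +1713.9 kb and chr15:63717201-63741399 at +1744.0 kb, the last over 4930449C09Rik and Gm41336. At +1673.4 kb islands covered 17797 and 22398 bp in Utx KO and 21196 and 26597 bp in Utx WT, so the groups overlapped. At +1713.9 kb they covered 12197 and 20998 bp in Utx KO and 24198 and 28998 bp in Utx WT. At +1744.0 kb they covered 5399 and 11598 bp in Utx KO and 20599 and 21597 bp in Utx WT. At +1713.9 and +1744.0 kb the groups did not overlap. At +1629.5 kb, a region chosen after its values were seen, islands covered 9999 and 9799 bp in Utx KO and 9799 and 10999 bp in Utx WT.

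PU.1 peaks were kept over the stretch where H3K4me1 was lost. In the window 2 of 139 PU.1 regions held by all 3 Utx WT libraries were lost, 1.44%, against 2.05% over the genome. Of 150 held by all 3 Utx KO libraries 7 were gained, 4.67%, against 4.78% over the genome. Both shares lie near those of the genome. Between Myc and the end of Pvt1 none of 25 was lost and none of 24 gained. Inside the 8 H3K4me1 regions lost there, 6 PU.1 regions were held by every Utx KO library and 6 by every Utx WT library. PU.1 in every Utx KO library was found in 5 of those 8 H3K4me1 regions. Base by base, 0.400 of 20.0 kb that every Utx WT library covered there were covered by no Utx KO library, 2.0%, against 3.46% over the genome. Of the PU.1 regions held by all 6 libraries, 20 of 26 in the distal zone overlapped H3K4me1 held by all 4 libraries, 76.9%, against 7 of 23 between Myc and the end of Pvt1, 30.4%, and 45.0% over the genome. H3K4me1 held by all 4 libraries leaves out, by definition, the regions lost in Utx KO. The lower share between Myc and the end of Pvt1 thus restates part of that loss.

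At Myc the PU.1 region chr15:61982601-61991599 was held by all 6 libraries, with 1068, 811 and 842 reads in the islands of the Utx KO libraries and 788, 887 and 895 reads in those of the Utx WT libraries. Its best-ranked island stood in the upper 0.859% to 2.22% of every list. The next PU.1 regions past it, at +7.1, +8.6, +14.3 and +17.7 kb, were held by all 6 libraries too. In the distal zone all 26 regions held by every Utx WT library were also held by every Utx KO library. Its 3 widest were chr15:63609801-63614999 with 1251, 1047 and 1032 reads in Utx KO and 1111, 1229 and 1225 in Utx WT, chr15:63657201-63661199 with 693, 495 and 618 in Utx KO and 511, 626 and 516 in Utx WT, and chr15:63719001-63722999 in 4930449C09Rik with 973, 691 and 801 in Utx KO and 743, 797 and 789 in Utx WT. These reads are not scaled for depth, and in each region the groups overlapped.

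PU.1 islands covered 154, 136 and 137 kb of the window in Utx KO and 135, 149 and 139 kb in Utx WT (two-sided exact permutation test, p = 0.8). Between Myc and the end of Pvt1 they covered 23.2, 23.0 and 19.0 kb in Utx KO and 23.2, 26.8 and 26.0 kb in Utx WT, a log2 ratio of -0.22 with an exact permutation p of 0.1, the smallest that 3 libraries against 3 can give. Per Mb of list, the ratio there was -0.20 with an exact permutation p of 0.2. Before Myc the direction was the reverse, with mean cover of 7.33 kb in Utx KO and 4.93 kb in Utx WT. The log2 ratio was 0.57 (exact permutation p = 0.1). The window also held more PU.1 peaks in Utx KO, on average 199 against 174 (exact permutation p = 0.1). Their log2 ratio was 0.19, beside 0.15 for peaks of the whole lists.

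The gained and lost PU.1 regions were short and weak. Those gained lay at -54.4, +342.9, +378.0, +1333.5, +1451.0, +1677.8 and +1974.9 kb, and those lost at +375.5 and +815.5 kb. The widest gained one, chr15:63959801-63960599 in Cyrib, held 63, 47 and 55 reads in Utx KO and had no island in Utx WT. It lies inside the H3K4me1 region at +1974.9 kb that was lost in Utx KO, as the gained PU.1 region at +342.9 kb lies inside the lost H3K4me1 region at +342.5 kb. The gained PU.1 region in the distal zone, at +1677.8 kb, held 45, 32 and 42 reads in Utx KO and had no island in Utx WT. Leaving out any Utx KO library raised the gained count to between 11 and 14, against 5.79% to 8.79% over the genome. The highest, 14 of 171, came without replicate 2. The lost count was 5 of 139 without Utx KO replicate 1, against 4.29%, and 4 of 153 without Utx WT replicate 3, against 3.18%.

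Open chromatin at Myc was present in all 12 ATAC libraries. The region chr15:61984228-61988386 ran from just before the Myc span to inside it, and a second region at -1.9 kb was likewise held by all 12. Over the window 10 of 69 regions were held by all 12, 14.5%, against 19.9% over the genome, and 5 of these 10 lay in the distal zone.

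With empty vector, the Myc region was covered over 3851 and 3452 bp in Utx KO, against 4032 and 4061 bp in Utx WT. In both Utx WT libraries it was a single interval, among the widest 0.0629% and 0.116% of the list. In Utx KO it was split in 2 and 3, with a gap from +0.69 to +0.95 kb in replicate 1 and from +0.68 to +1.03 kb in replicate 2. Within it lay 0.263 kb that both Utx WT libraries and neither Utx KO library covered, or 6.60% of the bases around Myc, against 14.3% over the genome. A split at this place was also present in Utx WT cells, since both empty-vector libraries of the Chd4 set had 3 intervals, with gaps from +0.72 to +1.04 and from +0.66 to +1.21 kb. With Smarca4 gRNA it was covered over 4149 and 3683 bp in Utx KO and 3946 and 4067 bp in Utx WT.

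In the comparison of Utx KO with Utx WT, both with empty vector, 2 of 33 ATAC regions held by both Utx WT libraries were lost, 6.06%, against 15.3% over the genome. Of 28 held by both Utx KO libraries 2 were gained, 7.14%, against 3.19% over the genome. The lost ones lay at +235.7 and +260.3 kb in Pvt1, and the gained ones at +819.2 and +1719.5 kb. Inside the 8 H3K4me1 regions lost over Pvt1, 5 ATAC regions were held by both empty-vector Utx KO libraries and 7 by both empty-vector Utx WT libraries. The widest, chr15:62222238-62224993 at +238.3 kb, was covered over 2620 and 2654 bp in Utx KO and 2733 and 2736 bp in Utx WT, and lies in the lost H3K4me1 region at +237.2 kb. It was chosen after its values were seen, and the lost ATAC region at +235.7 kb lies in that same H3K4me1 region. The count of lost regions rose to 7 of 33 without Utx KO replicate 2, against 20.0% over the genome. It was 7 of 39 without Utx WT replicate 1, against 22.6%, and 10 of 41 without Utx WT replicate 2, against 22.3%.

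Covered length between Myc and the end of Pvt1 was 8.60 ± 0.375 kb in Utx KO and 11.3 ± 0.0629 kb in Utx WT with empty vector (SD, n = 2 each), a log2 ratio of -0.39 (two-sided exact permutation test, p = 0.33). The whole lists differed by -0.33, and per Mb of list the ratio was -0.07. H3K4me1 over the same stretch thus had a log2 ratio of -1.97 on that scale and ATAC one of -0.07, in cells prepared differently, and the difference between assays was not tested.

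With Smarca4 gRNA the share of the window's regions that was lost lay near that of the genome in both genotypes. In Utx WT cells 2 of 33 regions were lost, 6.06%, against 8.17% over the genome, at +260.3 and +447.7 kb, and 0 of 30 gained, against 1.38%. In Utx KO cells 3 of 28 were lost, 10.7%, against 11.1%, and 0 of 22 gained, against 0.488%. The regions lost in Utx KO cells lay at +819.2, +1687.2 and +1719.5 kb. The region chr15:63704315-63705352 at +1719.5 kb was covered over 237 and 247 bp in both empty-vector Utx KO libraries, against no peak in the Utx KO libraries with Smarca4 gRNA. In Utx WT it had 205 bp in 1 library with Smarca4 gRNA and no peak with empty vector, and in the Chd4 set it had 504 and 313 bp with Chd4 gRNA and 736 and 1006 bp with empty vector. Its gain with Utx KO and its loss with Smarca4 gRNA share the 2 empty-vector Utx KO libraries. At +1687.2 kb, chr15:63672220-63672813, no peak was found in Utx KO with Smarca4 gRNA, against 271 and 300 bp in Utx KO with empty vector. The lost count in Utx KO cells was 8 without Smarca4 gRNA replicate 1 and 7 without empty-vector replicate 1, and in Utx WT cells 6 without empty-vector replicate 1 and 8 without replicate 2.

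Set against Utx WT cells with the same guide, Utx KO cells with Smarca4 gRNA had lost 3 of 30 regions, 10%, against 17.1% over the genome, and gained 0 of 22, against 1.55%. These lay at +51.5 kb, just before Pvt1, at +153.9 kb inside it and at +1687.2 kb. Set against Utx WT cells with empty vector, 6 of 33 were lost, 18.2%, against 25.7%, and 0 of 22 gained, against 1.19%. Of these 6, 4 lay between Myc and the end of Pvt1, at +51.5, +153.9, +235.7 and +260.3 kb. Without Utx KO with Smarca4 gRNA replicate 1 these lost counts were 8 of 30 and 11 of 33, against 31.0% and 39.8% over the genome. Leaving out a Utx WT library gave 8 or 9 and 11 or 14. The genome shares were then 22.4% or 27.6% and 33.3% or 32.5%. Within the distal zone the Utx KO libraries with Smarca4 gRNA covered 4.91 and 3.98 kb, those with empty vector 5.48 and 5.85 kb, and the Utx WT libraries with empty vector 6.60 and 8.09 kb. Their whole lists were shorter in the same order, and per Mb of list the log2 ratio of Utx KO with Smarca4 gRNA to Utx WT with empty vector was -0.14. Base by base, the share of distal bases lost was 20.1% with Smarca4 gRNA in Utx KO, against 8.85% over the genome, and 2.17% with it in Utx WT, against 6.46%. It was 24.0% for Utx KO set against Utx WT, both with Smarca4 gRNA, against 16.9% over the genome, 13.8% for Utx KO with Smarca4 gRNA set against Utx WT with empty vector, against 22.1%, and 11.2% for Utx KO set against Utx WT, both with empty vector, against 14.3%. These shares stood above the genome in 2 of the 5 comparisons, which share libraries.

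With Chd4 gRNA the ATAC peaks at Myc were narrower and peaks of the distal cluster were lost, in lists that were shorter throughout. With lists of equal length made of the widest peaks, 0 of 5 regions were lost in the window and 0 of 3 in the distal zone. The share over the genome was then 6.46%. The regions lost with the full lists were too narrow to be among the 12416 peaks kept per list. They could not be called lost there, so this setting does not test those losses. The Myc region was covered over 2114 and 1686 bp with Chd4 gRNA, against 3428 and 3142 bp with empty vector. Around Myc 32.1% of the bases covered by both empty-vector libraries were covered by neither Chd4 gRNA library, against 20.8% over the genome. Covered length there was 1.9 ± 0.303 kb with Chd4 gRNA and 3.26 ± 0.241 kb with empty vector (SD, n = 2 each), a log2 ratio of -0.78 beside -0.74 for the whole lists (two-sided exact permutation test around Myc, p = 0.33).

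In the window 6 of 34 regions were lost with Chd4 gRNA, 17.6%, against 18.7% over the genome, and 0 of 20 gained, against 0.229%. The distal zone held 5 of these 6, of 14 regions held there by both empty-vector libraries, and the sixth lay at +88.5 kb in Pvt1. The distal ones lay at +1629.1, +1667.4, +1693.8, +1736.5 and +1743.8 kb. At +1629.1 kb, chr15:63614224-63614736, no peak was found with Chd4 gRNA, against 484 and 462 bp with empty vector. At +1667.4 kb, chr15:63652402-63652986, none was found with Chd4 gRNA, against 393 and 559 bp with empty vector, and all 8 libraries of the Smarca4 set had a peak of 271 to 516 bp. Distal covered length was 5.34 and 2.88 kb with Chd4 gRNA and 8.64 and 7.91 kb with empty vector, a log2 ratio of -1.01, and of -0.30 per Mb of list. The count of lost regions in the window was 13 of 34 without Chd4 gRNA replicate 1, against 39.1% over the genome. Replicate 2, the remaining one, had the shortest list of all.

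The 3 widest distal ATAC regions, at +1672.9, +1662.8 and +1631.7 kb, were held by all 12 libraries. At +1672.9 kb, chr15:63657420-63659052, the width ranged from 1060 to 1633 bp over the Smarca4 set, and was 1285 and 570 bp with Chd4 gRNA and 1314 and 1414 bp with empty vector in the Chd4 set. It lies inside the PU.1 region chr15:63657201-63661199 and the H3K4me1 region at +1673.4 kb. All 5 distal ATAC regions held by every library overlapped an H3K4me1 region held by every library, and 4 of 5 overlapped a PU.1 region held by every library. Over the genome both shares were 88.8%.

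**Figure D5:**
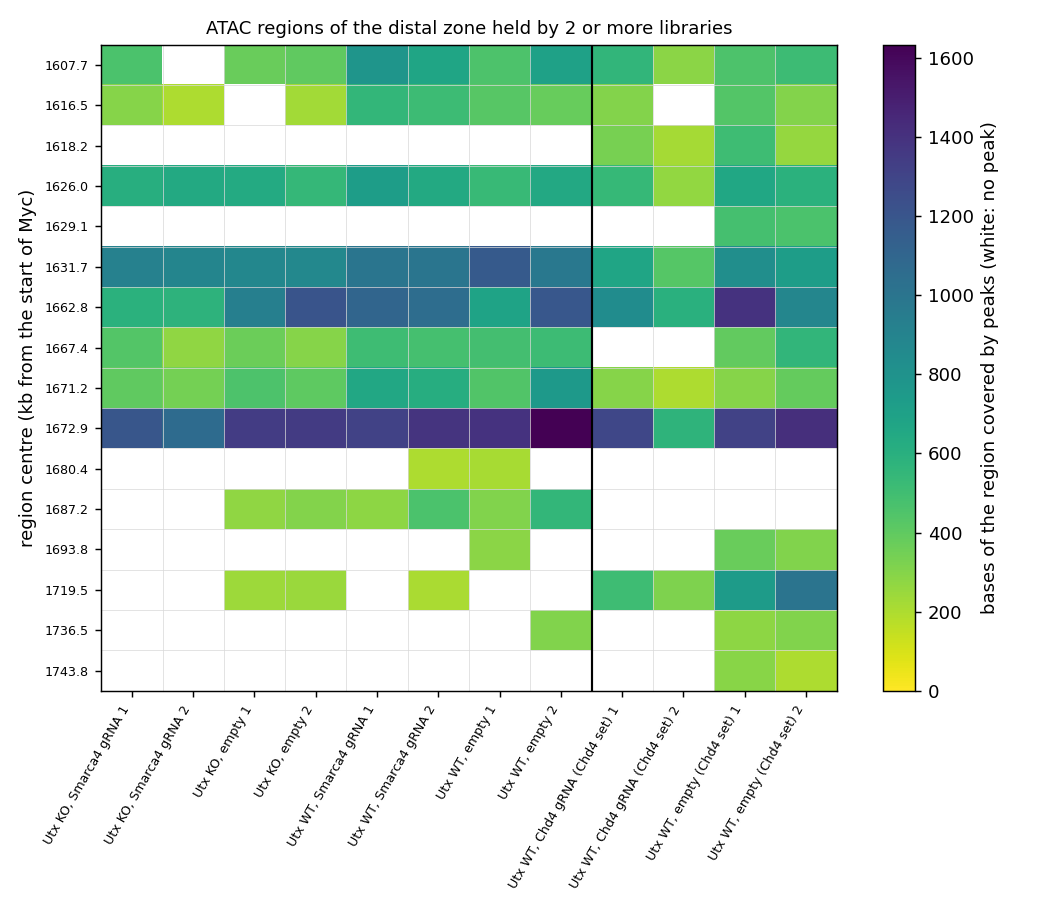
Bases covered by ATAC peaks (colour, white for no peak) in each distal region held by 2 or more libraries (rows, by centre in kb from the start of Myc) and each of 12 libraries (columns, edited or KO left of their controls, with a line between the Smarca4 and Chd4 sets). The regions at 1672.9, 1662.8 and 1631.7 kb are filled in all columns, and those at 1629.1 and 1743.8 kb in the empty-vector libraries of the Chd4 set alone.

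The ATAC sets differed from each other at this locus in cells of the same genotype and vector. Between the empty-vector Utx WT libraries, 13 of 34 regions held by both libraries of the Chd4 set were in neither library of the Smarca4 set, against 27.1% over the genome. The reverse held for 16 of 33, against 29.3%, and 16 regions were in all 4. Between Myc and the end of Pvt1 the Smarca4 set alone had 10 of its 16 regions. In all 12 libraries together, 6 of 20 regions held by every library of the Chd4 set were in none of the Smarca4 set, against 12.4% over the genome, and 7 of 20 in the reverse, against 9.69%. Regions at +119.5 and +713.3 kb were held by all 8 and by none of the 4, and regions at +886.0 and +1512.1 kb by all 4 and by none of the 8. They were chosen after their values were seen. The names of the deposited Chd4-set lists carry a p-value threshold and those of the Smarca4 set do not, so the sets may have been called differently. Set and processing cannot be told apart, and edited cells were compared with empty vector of their own set.

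The partners and antagonists of Myc were described by regions within 50 kb of 12 genes. Mycn and Mycl are paralogs of Myc, Max is its obligate partner, Mxd1, Mxd3, Mxd4, Mxi1, Mnt and Mga compete for Max, and Mlx, Mlxip and Mlxipl form a related network that senses glucose. In H3K4me1 9 of 75 regions were lost in Utx KO, 12%, and 3 of 65 gained, 4.62%, against 17.1% and 3.98% over the genome. The lost ones were 3 of 7 at Max, 3 of 7 at Mlx, 1 of 5 at Mxd1, 1 of 9 at Mlxip and 1 of 11 at Mlxipl. In PU.1 5 of 145 were lost, 3.45%, and 7 of 145 gained, 4.83%, against 2.05% and 4.78% over the genome. In ATAC with empty vector, 12 of 70 were lost in Utx KO, 17.1%, against 15.3% over the genome. These were 4 of 10 at Mxi1, 2 of 8 at Mxd1, 2 of 7 at Mnt, 2 of 8 at Mlxip, 1 of 7 at Mxd3 and 1 of 8 at Mlx. With Smarca4 gRNA 9 of 70 were lost in Utx WT, 12.9%, against 8.17% over the genome, and 3 of 53 in Utx KO, 5.66%, against 11.1%. In Utx KO with Smarca4 gRNA 9 of 60 were lost relative to Utx WT with the same guide, 15%, against 17.1% over the genome, and 18 of 70 relative to Utx WT with empty vector, 25.7%, the same share as over the genome. With Chd4 gRNA 6 of 71 were lost, 8.45%, against 18.7%. No ATAC region of these genes was gained in any of the 6 comparisons, of 46 to 60 regions held by the tested group. Over the genome 0.229% to 3.19% were gained, so few gains were to be found among so few regions. Several comparisons share libraries.

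Over the 12 ATAC libraries, the number of regions within 100 kb of Myc was 5 to 10 in the Smarca4 set and 4 to 7 in the Chd4 set, of 12 regions in all. Per 1000 peaks this was 0.157 to 0.197 in the Smarca4 set and 0.144 to 0.161 in the Chd4 set. Of 13341 genes compared, Insig1, Vil1, Fancc and Ctdsp1 were among those with the pattern most like it, with Pearson r of 0.938, 0.905, 0.90 and 0.899. The libraries fall into those sets and share list length, so r is given as a description. Vil1 and Ctdsp1 are neighbours on chromosome 1 and share regions.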

How the data were processed

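Peak lists of 22 libraries were used, and 2 input libraries had no list and entered no comparison. Per the submitters' processing notes Bowtie, Bowtie2, SICER and MACS2 were used on mm10 (Bowtie and MACS2 alone in the Chd4 set), without versions or roles. In the deposited ChIP lists each island lies on a 200 bp grid and carries a whole number. Its form is that of an unscaled read count, and it was used as such. The authors' count was used to rank peaks within a list. The deposited ATAC lists give start and end, with no count, so width took its place. A deposited interval is the authors' call in a single library. Counting error and depth are unknown for ATAC.

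Peaks overlapping by any base or touching were merged over all libraries of an assay. A region was lost, gained or kept by the rule in the results. Means of covered length were compared by two-sided exact permutation over libraries. The members, zones, motifs and gene lists were chosen with earlier results of these data known. Regions were named by rule: those at Myc, the 3 widest and every changed region of the distal zone, and elsewhere the 3 widest lost and gained per comparison. Exceptions are marked, or complete a count. The calls were tested on simulated data with planted changes. Tables were handled in pandas 2.3.3 under Python 3.11.15, permutation tests written with numpy 2.4.6 and figures drawn with matplotlib 3.10.9. Settings tried were stricter lists of equal length, 50% cover of a region, merging within a comparison, scaling by list, same-numbered pairs and each library left out. Zone counts, base counts and the comparison of sets were added after the data were seen. A few genes that the rules name are not reported here.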

Additional observations from a re-analysis of the deposited data

How the results depend on the processing

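Every list of a comparison was cut to an equal number of its top peaks, N being 50% of the shortest list. Lost regions in the window were then 5 of 16 in H3K4me1 (14.2% over the genome) and 1 of 67 in PU.1 (4.14%). Each ATAC comparison had 0, with 5 to 9 regions left to lose, against 3.38% to 8.56% over the genome. The ATAC regions lost with the full lists were too narrow for this cut, so they could not be called lost. Gained regions were 2 of 75 in PU.1 (3.89%) and 0 of 9 for Utx KO with empty vector (6.69%). Utx KO with Smarca4 gRNA set against Utx WT with empty vector had 1 of 6 (7.34%). Of the H3K4me1 losses 4 of 7 stayed between Myc and the end of Pvt1 and 0 of 6 in the distal zone. Fewer peaks per list leave fewer regions. Where a region had to be covered over 50%, lost regions were 5 of 88 in PU.1, against 6.1% over the genome. They were 4 of 32 for Utx KO with empty vector, against 19.7%, with 1 of 25 gained, against 4.1%. For Utx KO with Smarca4 gRNA set against Utx WT with the same guide 6 of 29 were lost, against 23.3%. The H3K4me1 loss between Myc and the end of Pvt1 was then 11 of 13 and in the distal zone 1 of 6, against 24.9%. Merging within a comparison moved none of these counts by over 1.5 times.

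The sign of the covered-length ratio turned for PU.1 with equal lists (log2 -0.08, against 0.01), and per Mb of list for Utx KO with empty vector (0.04), Smarca4 gRNA in Utx WT (0.08, and 0.14 with equal lists), Smarca4 gRNA in Utx KO (0.02) and Utx KO with Smarca4 gRNA set against Utx WT with empty vector (0.07). The cause was not tested.

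With each library left out in turn, lost regions were 10 to 15 in H3K4me1, 2 to 5 in PU.1, 2 to 10 for Utx KO with empty vector, 3 to 8 for Smarca4 gRNA in Utx WT, 3 to 8 for Smarca4 gRNA in Utx KO, 3 to 9 for Utx KO with Smarca4 gRNA against the same guide, 6 to 14 against empty vector and 7 to 13 for Chd4 gRNA. Gained regions were in that order 0 to 4, 8 to 14, 2 to 2, 0 to 5, 0 to 2, 0 to 0, 0 to 0 and 0 to 1. A call needs every library of a group and no library of the other. Leaving out a library can therefore keep or raise a count but not lower it, so the low end of these ranges is no test. The lost and gained shares over the genome rose too. With Chd4 gRNA the genome share lost was then 20.6% to 39.1%, against 18.7% with all libraries. The H3K4me1 gained count was 2 and 4 without Utx KO replicates 1 and 2 and 3 without Utx WT replicate 2. That of Smarca4 gRNA in Utx WT was 5 and 2 without its replicates 1 and 2 and 1 without empty-vector replicate 2, that in Utx KO 1 without Smarca4 gRNA replicate 2 and 2 without empty-vector replicate 2, and that of Chd4 gRNA 1 without its replicate 2. Log2 ratios of covered length were -1.05 to -0.47, -0.05 to 0.05, -0.36 to -0.22, -0.11 to 0.03, -0.37 to -0.09, -0.61 to -0.34, -0.65 to -0.38 and -1.23 to -0.51. Lost H3K4me1 regions between Myc and the end of Pvt1 were 8 to 11, and in the distal zone 0. Distal losses with Chd4 gRNA were 5 to 6. With equal lists they were 0 of 3, in lists that the regions lost before were too narrow to enter.

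The deviations of same-numbered libraries from their group means had correlations of -0.019 to 0.041. With so few libraries per group, such low values cannot decide whether same-numbered libraries share an animal or a culture. With a replicate block the log2 ratios of covered length were -0.78 in H3K4me1, 0.01 in PU.1, -0.29 for Utx KO with empty vector, -0.04 and -0.23 for Smarca4 gRNA in Utx WT and in Utx KO, -0.47 and -0.51 for Utx KO with Smarca4 gRNA against the same guide and against empty vector, and -0.87 for Chd4 gRNA, with exact p of 0.5 or above. Flipping the signs of paired differences can give no p below 0.5 with 2 pairs or 0.25 with 3 pairs. Depth limits what a missing ATAC peak shows, since the lists carry no counts.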

Other observations

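The far end of the window reaches the gasdermin C genes, which encode pore-forming proteins of epithelial cells, and Cyrib. Cyrib ends at 64060778, past the end of the window at 63990361. Counts within 50 kb of it therefore include regions outside the window. Within 50 kb of Cyrib 1 of 6 H3K4me1 regions was lost in Utx KO cells, against 17.1% of all regions over the genome. Of 31 PU.1 regions 2 were gained, against 4.78% over the genome, and 0 of 31 were lost, against 2.05%. ATAC regions within 50 kb of Cyrib were lost in 4 of 15 cases with Chd4 gRNA, against 18.7% over the genome. From 1.9 to 2 Mb past Myc 0 of 3 were lost with Chd4 gRNA, so those 4 lay past the window. In Utx KO with empty vector 1 of 6 was lost, against 15.3%. In Utx KO with Smarca4 gRNA 2 of 8 were lost relative to Utx WT with the same guide, against 17.1%, and 1 of 6 relative to Utx WT with empty vector, against 25.7%. With Smarca4 gRNA in Utx WT cells 1 of 8 was gained, against 1.38%, and 0 of 6 lost, against 8.17%. The gained region lay past the window, since 0 of 30 were gained inside the window. In Utx KO cells with Smarca4 gRNA 0 of 5 were lost, against 11.1%. At Gsdmc4 the ATAC region centred at +1910.6 kb was held in 378 bp of 1 Utx KO library with Smarca4 gRNA, in 379 and 399 bp of both Utx WT libraries with Smarca4 gRNA and in 207 bp of 1 Utx WT library with empty vector, and in neither Utx KO library with empty vector. In the Chd4 set it was held in 343 bp of 1 Chd4 gRNA library and 380 bp of 1 empty-vector library.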
